A study of Mus musculus with 5 samples.

Results

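The genes described here are 7 genes of the major histocompatibility complex (MHC) class II presentation pathway in mouse small intestinal epithelium: H2-Aa, H2-Ab1, H2-Eb1, H2-DMa, H2-DMb1, Cd74 and Ciita. They were taken by name. All 7 of them were found among the 22042 genes of the bulk RNA-seq table and among the 27998 genes of the droplet single-cell matrix. The bulk data come from C57Bl/6J mice of genotype Cck-Cre; R26-LSL-tdTomato, aged 6 to 8 weeks, in which cells that express or have expressed the gut hormone gene Cck are marked by tdTomato. Marked (CCK+) and unmarked (CCK-) epithelial cells of the small intestine were sorted from 3 fasted mice, A, B and F, kept without food overnight, and from 3 refed mice, C, D and E, which received the liquid diet Ensure after the fast. This gives 12 libraries in 4 groups of 3. Each library is from 1 mouse, and the letter that a CCK+ and a CCK- library share was taken as the mouse. The droplet data are 1 library of sorted tdTomato+ cells pooled from 4 Neurog3-Cre; R26-LSL-tdTomato mice aged 6 weeks, on the same C57Bl/6J strain and with no treatment. Neurog3 is the transcription factor that commits crypt progenitors to the enteroendocrine lineage, and its Cre line also marks other epithelial cells. Neither sort is described as gating on an epithelial or a leukocyte surface protein.

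MHC class II molecules present peptides from the endosomal pathway to CD4+ T cells. H2-Aa with H2-Ab1 encode the alpha and beta chains of the I-A molecule, and H2-Eb1 the beta chain of I-E, whose alpha chain gene H2-Ea is not expressed in the C57BL/6 strain. Cd74 encodes the invariant chain, which blocks the groove and guides class II to the endosome. There H2-DMa and H2-DMb1, which form H2-DM, exchange the last piece of the invariant chain for peptide. Ciita encodes the coactivator that is recruited by RFX, CREB and NF-Y at the X and Y boxes of these promoters and that interferon-gamma induces. The pathway is best known from B cells, dendritic cells and macrophages, but absorptive cells of the small intestine also carry it.

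The I-A, I-E and DM genes lie together on chromosome 17. In RefSeq on GRCm38.p6 H2-DMa spans chr17:34119693-34139101, H2-DMb1 chr17:34153191-34160229, H2-Ab1 chr17:34263227-34269418, H2-Aa chr17:34282744-34287823 and H2-Eb1 chr17:34305867-34316674. Ciita spans chr16:10480014-10531064. A promoter sequence was at hand for 4 of the 7 genes, and 3 of these are shown to mark where the letters of the X and Y boxes occur. Not all of them hold both boxes. The promoter of H2-DMa, with a match to the Y box alone, is not shown. Each run is the 150 bases before the start site, 5′ to 3′ on the gene's strand, with matches to the X box (AG, any 2 bases, AC, any 1 base, GATG) and Y box (GATTGG, or CCAATC where it lies on the opposite strand) in capitals. H2-Eb1 is from chr17:34305717-34305866 (plus strand), H2-DMb1 from chr17:34153041-34153190 (plus strand) and H2-Aa from chr17:34287824-34287973 (minus strand).
H2-Eb1: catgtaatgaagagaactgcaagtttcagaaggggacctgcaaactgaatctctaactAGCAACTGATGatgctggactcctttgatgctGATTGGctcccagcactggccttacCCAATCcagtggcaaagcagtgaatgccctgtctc
H2-DMb1: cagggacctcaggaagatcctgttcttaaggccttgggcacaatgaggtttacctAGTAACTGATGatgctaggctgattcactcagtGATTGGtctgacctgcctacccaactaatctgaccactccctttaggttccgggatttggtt
H2-Aa: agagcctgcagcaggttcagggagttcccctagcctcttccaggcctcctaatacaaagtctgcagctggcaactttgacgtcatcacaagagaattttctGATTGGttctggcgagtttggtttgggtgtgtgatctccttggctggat

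In H2-Eb1 the X box began 92 bases and the Y box 60 bases before the start, and in H2-DMb1 they began 95 and 62 bases before it. The H2-Aa window held a Y box 49 bases before the start and no match to these X box letters. In H2-DMa the search over the longer window of 250 bases before to 50 bases after a start found a Y box 199 bases before the second of its annotated start sites. Over both strands, the X box letters occurred in 0.968% and the Y box letters in 16.1% of all 32851 promoters of that length. An X box followed within 35 bases by a Y box on the same strand occurred in 4 promoters (0.0122%), those of H2-Eb1, H2-DMb1, H2-Eb2 and Hnrnpa1. Matches are a description of letters, and binding was not measured.

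The bulk libraries sum to between 7061155 and 11371114 normalized counts, with 16656 to 18855 genes above 0. Sample titles name all 4 bulk groups as CCK+ cells, while the cell type labels name 2 of them CCK-; Cck was 450-fold higher (log2 difference 8.81, SE 0.22) in the libraries labelled CCK+, on the log2(normalized count + 1) scale that is used for every bulk difference. The CCK+ libraries also held more leukocyte RNA. The summed level of 9 pan-leukocyte markers ran from 1400 to 3069 in CCK+ and from 206 to 661 in CCK- libraries, and that of 10 T and intraepithelial lymphocyte markers from 4330 to 9477 and from 490 to 1172. Of the cell types that carry class II by profession, B cells and dendritic cells had lower marker sums. These were 58.0 to 207 in CCK+ and 22.1 to 95.5 in CCK- for 10 B cell markers, and 98.2 to 154 and 44.9 to 175 for 9 dendritic cell markers. Of the 10 B cell markers 2 were at 0 throughout the fasted and 2 throughout the refed CCK- libraries. The 9 markers of monocytes and macrophages, the latter also carriers of class II, reached higher in CCK+, with sums of 126 to 1398 against 57.0 to 133 in CCK-. Sums over different markers do not compare the numbers of cells of each type. In bulk, fewer cells of a type and less RNA per cell cannot be told apart.

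The I-A genes H2-Ab1 and H2-Aa were lower in the CCK+ than in the CCK- library of each of the 6 mice. H2-Ab1 (ENSMUSG00000073421) stood at 625, 882 and 1709 normalized counts in CCK+ cells of the fasted mice A, B and F, and at 965, 893 and 475 in those of the refed mice C, D and E. The paired CCK- libraries held 1237, 1134 and 2584 (A, B, F) and 1406, 1953 and 885 (C, D, E). The ranges of the sorts overlapped, because mouse F was high and mouse E low in both, but within each mouse the CCK- library was the higher. For H2-Aa (ENSMUSG00000036594) the CCK+ values were 433, 494 and 1062 in A, B and F and 510, 530 and 248 in C, D and E. Its CCK- values were 712, 520 and 1866, and then 786, 1120 and 315. In mouse B the libraries lay closest, with a CCK+ to CCK- ratio of 0.949. H2-Eb1 (ENSMUSG00000060586), the I-E beta chain, held 136, 195 and 300 against 159, 193 and 330 in the fasted mice, and 171, 136 and 63.6 against 180, 230 and 107 in the refed mice, CCK+ against CCK-. It was lower in CCK+ in 5 of 6 mice, with mouse B at a ratio of 1.01.

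**Figure D1:**
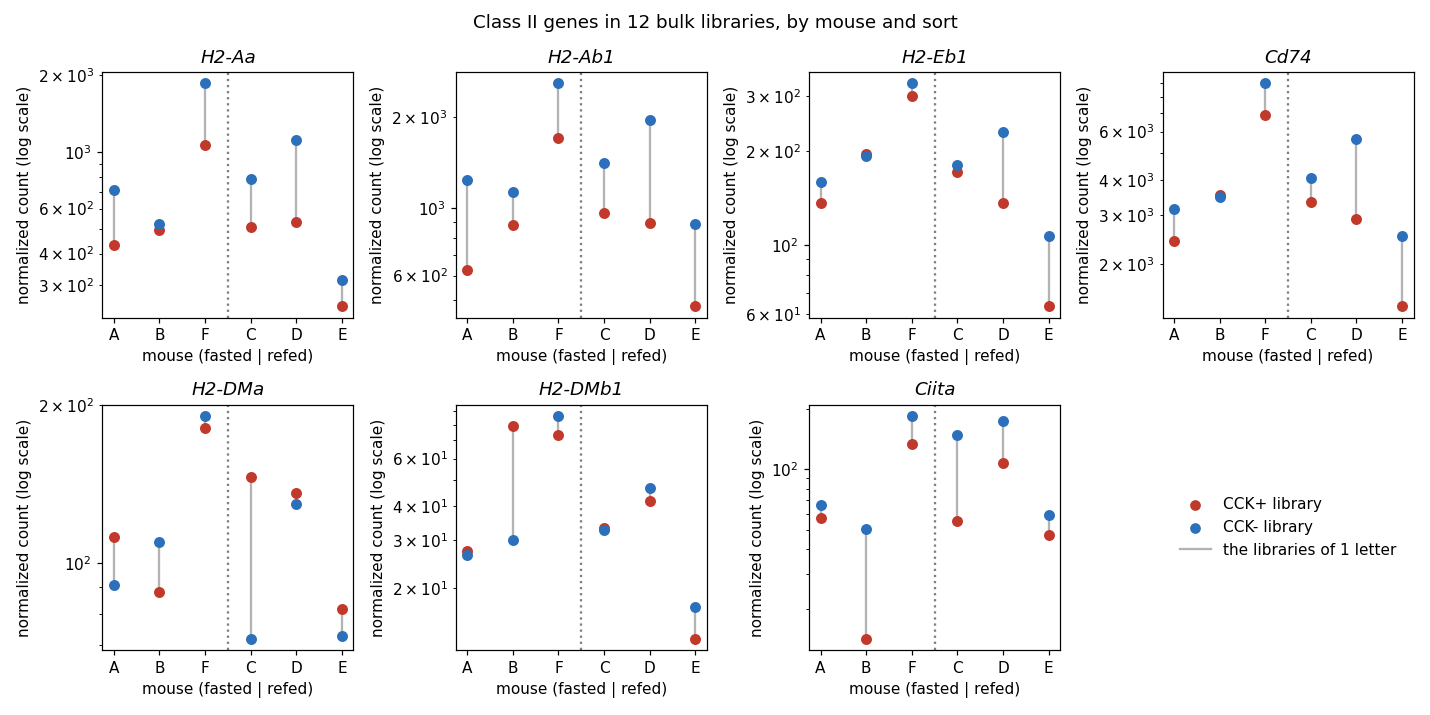
Normalized counts (log axis) of the 7 class II genes in each of the 12 bulk libraries, 1 panel a gene, with fasted mice A, B and F left and refed mice C, D and E right of the dotted line and the sorts in separate colours. H2-Aa, H2-Ab1 and Ciita lie lower in CCK+ than in CCK- in 6 of 6 mice, and mouse F is high and mouse E low in both sorts for most of the genes.

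Of the genes that serve the class II molecule, Cd74 and Ciita moved the same way and the DM genes did not. Cd74 (ENSMUSG00000024610, on chromosome 18) held 2421, 3549 and 6873 normalized counts in CCK+ and 3161, 3489 and 8974 in CCK- cells of the fasted mice A, B and F. In the refed mice C, D and E it held 3347, 2911 and 1404 in CCK+ and 4081, 5650 and 2530 in CCK- cells. It was lower in CCK+ in 5 of 6 mice, and mouse B had a ratio of 1.02. Ciita (ENSMUSG00000022504) was lower in CCK+ in 6 of 6 mice, with 57.3, 14.2 and 134 against 66.2, 50.1 and 185 in A, B and F and 55.3, 107 and 47.1 against 148, 174 and 59.4 in C, D and E. H2-DMa (ENSMUSG00000037649) held 112, 88.1 and 181 against 91.1, 110 and 191 in the fasted and 146, 136 and 82.0 against 71.7, 130 and 72.6 in the refed mice, and was lower in CCK+ in 2 of 6. H2-DMb1 (ENSMUSG00000079547) held 27.5, 79.2 and 73.0 against 26.5, 30.1 and 86.2, and 33.3, 42.0 and 13 against 32.8, 46.9 and 17.1, and was lower in CCK+ in 3 of 6. The sorts overlapped for all 7 genes. H2-DMb1 shares 37.6% of its 31-base words with H2-DMb2, so reads can be split between that pair. By whole gene span, introns included, Ciita overlaps Dexi on the opposite strand over 25888 bases. By the same measure H2-DMa overlaps Brd2 over 3094 and H2-Eb1 the antisense gene Gm20513 over 2204. Reads were counted against transcripts, and the overlap of exons was not measured. Whether the counting used strand is not given in the sources used here.

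Tested without regard to the mouse (limma over all 22042 genes, Benjamini-Hochberg adjusted p, threshold 0.05), 0 of the 7 genes passed between CCK+ and CCK-, and 1 had an unadjusted p under 0.05. Over all genes the same comparison called 33.7%, of which 19.6% were higher and 14.1% lower in CCK+. The closest was H2-Ab1, with a log2 difference of -0.75 (SE 0.29) and an adjusted p of 0.0581. With the mouse as a block, 4 of the 7 were lower in CCK+ and none higher, where that fit called 15.0% of all genes lower, 19.8% higher and 34.8% in either direction. H2-Ab1 was 1.68-fold lower (log2 -0.75, SE 0.11, adjusted p = 0.000547), H2-Aa 1.52-fold (-0.61, SE 0.13, adjusted p = 0.00504), Cd74 1.39-fold (-0.47, SE 0.11, adjusted p = 0.00809) and Ciita 1.75-fold (-0.81, SE 0.24, adjusted p = 0.0258). For H2-Eb1 the difference was -0.32 (adjusted p = 0.110), for H2-DMa 0.19 (0.454) and for H2-DMb1 0.11 (0.788). The median over the 7 genes was -0.47, beside 0.09 over all genes.

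**Figure D2:**
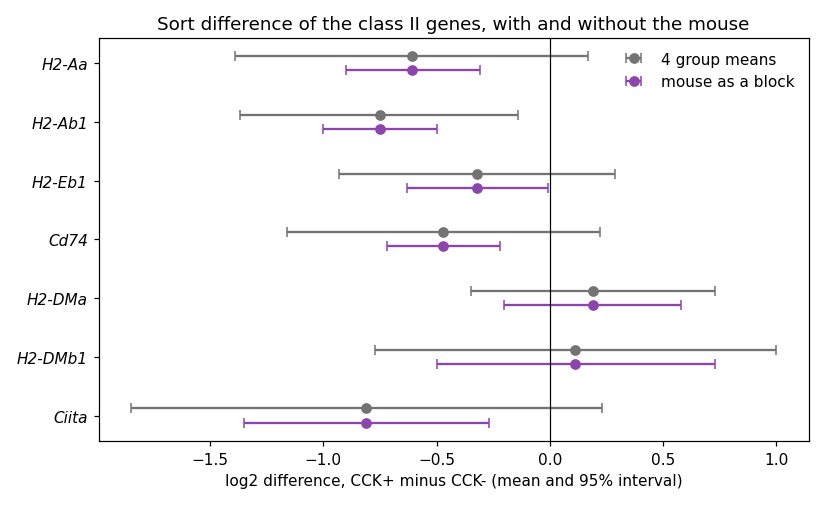
Log2 difference between CCK+ and CCK- libraries for each class II gene, as mean and 95% interval, without and with the mouse as a block. With the block the intervals of H2-Ab1 (-1.0 to -0.50), H2-Aa, Cd74 and Ciita lie below 0, while those of H2-DMa and H2-DMb1 span it.

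H2-Ab1 alone stayed lower by this test when each mouse was left out in turn under the block, in 6 of 6 fits (adjusted p 0.00476 to 0.0182). H2-Aa passed in 3 of 6, Cd74 in 2, H2-Eb1 in 1 and Ciita in 0 (adjusted p 0.0587 to 0.140). Scaling the libraries to equal sums instead moved the median difference over all genes from 0.09 to 0.35, with a median shift of 0.38 a gene. On that scale and with the block, H2-Ab1 was still lower (log2 -0.35, adjusted p = 0.0245), H2-DMa was higher in CCK+ (0.58, adjusted p = 0.0325), H2-Eb1 had the other sign (0.08) and Cd74, H2-Aa and Ciita did not pass. Within the refed mice (block), 3 of 7 were lower in CCK+, where 11.6% of all genes were: H2-Ab1 (-0.86, adjusted p = 0.00304), H2-Aa (-0.68, 0.0220) and Cd74 (-0.70, 0.00862). Within the fasted mice 1 of 7 was, H2-Ab1 (-0.65, 0.0182), where 8.19% of all genes were. The difference between states was itself tested, and 0 of 7 passed in either fit. Leukocyte transcripts moved the opposite way. Ptprc, the pan-leukocyte gene, held 636 to 1678 in CCK+ and 44.3 to 113 in CCK- libraries (log2 3.56, SE 0.27, adjusted p = 1.95e-07), and the part that such RNA has in the class II values was not tested.

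Refeeding was followed by no called change in these genes. In CCK+ cells 0 of 7 passed (adjusted p 0.336 to 0.984, background 2.55% of all genes), in CCK- cells 0 of 7 (0.680 to 0.951, background 1.23%), and none had an unadjusted p under 0.05 in either. For the difference in refeeding between the sorts it was 0 of 7 as well (adjusted p 0.854 to 1.000, background 0.00454%; 0.646 to 0.999 with the block). In CCK+ cells Cd74 had a mean of 4281 ± 2314 normalized counts (SD, n = 3) fasted and 2554 ± 1019 refed, a log2 difference of -0.70 with a 95% interval from -1.68 to 0.28. H2-Eb1 came nearest to the threshold there, with 210 ± 82.8 fasted and 124 ± 54.7 refed (log2 -0.80, interval -1.67 to 0.06). In CCK- cells the Cd74 means were 5208 ± 3266 and 4087 ± 1560 (log2 -0.25, interval -1.23 to 0.72). With 3 mice a group these intervals hold both no change and a fall by more than 1 on the log2 scale. The sign of some differences rested on mouse F or mouse E. Without the libraries of F, H2-Ab1 differed by 0.00 in CCK+ and 0.18 in CCK-, and H2-Aa by -0.19 and 0.10. Without those of E, H2-Ab1 differed by -0.08 and 0.11, and H2-Aa by -0.23 and 0.09.

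The spread between mice was shared by the sorts. Mouse F had the highest value of all 6 mice in both its CCK+ and its CCK- library for 6 of the 7 genes, against 3.61% of the 19889 genes compared, and mouse E the lowest in both for 5 of the 7, against 4.36%. H2-DMb1 was highest in mouse B in CCK+, H2-DMa lowest in mouse C in CCK-, and Ciita lowest in mouse B in both. The same mouse, whichever it was, came out highest in both sorts for 6 of 7 genes (24.1% of all) and lowest in both for 6 of 7 (27.5%). Against the mean of its own group, mouse F lay 0.82 higher on the log2 scale for Cd74 in CCK+ and 0.96 higher in CCK-, and mouse E 0.77 and 0.62 lower. These mice were picked out after their values were seen, and the pattern was not tested. The dendritic cell marker Itgax held 87.9 in the CCK- library of mouse F and 0 to 5.45 in the other 5 CCK- libraries, while in CCK+ mouse F, at 39.6, lay within the range of 33.2 to 77.6. The macrophage gene Csf1r held 27.9 in mouse F and 5.71 to 25.6 in the other CCK- libraries. Their part in the mouse F values was not tested.

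In the lists of pathway genes both directions occurred, and over all genes the comparison called 14.1% lower and 19.6% higher. Of 4 other class II genes none passed (H2-DMb2 -0.19, SE 0.33), H2-Ea has no row in the bulk table, and of 8 genes of endosomal processing 1 was higher and 2 were lower in CCK+. These were the protease genes Ctsl (log2 1.25, SE 0.14, adjusted p = 7.77e-06) and Ctss (-1.17, SE 0.14, adjusted p = 1.22e-05), whose products trim the invariant chain, and Marchf8 (-0.55, SE 0.13), a ubiquitin ligase. Of 7 genes for factors at the X and Y boxes, Rfxap was higher (1.53, SE 0.32) and Rfxank (-0.54) and Nfyc (-0.59) were lower, with Rfx5 at 0.26 (adjusted p = 0.320). Among 7 genes of interferon-gamma signalling 3 were lower and 0 higher, Ifngr2 (-1.0, SE 0.12), Jak2 (-0.98, SE 0.11) and the receptor chain Ifngr1 (-0.58, SE 0.14, adjusted p = 0.00611). Irf1, an early target of the pathway, differed by -0.26 (adjusted p = 0.303). Of 13 genes that respond to interferon-gamma 4 were lower, Irgm2 (-1.09), Ido1 (-1.44), Igtp (-1.12) and Gbp6 (-1.45), and 2 were higher, among them Gbp8 (2.25).

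Of 14 class I genes 4 were lower in CCK+, 0 higher and 10 did not pass. Those lower were B2m, the light chain of class I (log2 -1.30, SE 0.15, adjusted p = 1.09e-05), H2-K1 (-0.62, SE 0.13, adjusted p = 0.00167), and Psmb8 (-0.46) and Erap1 (-0.42), a proteasome subunit and a peptidase, while Nlrc5, the class I coactivator, differed by 0.13 (adjusted p = 0.823). B2m held 7951 to 17291 normalized counts in CCK+ and 24138 to 31587 in CCK- libraries, so its groups did not overlap. Of 6 co-stimulatory and inhibitory ligands Icosl was higher (0.61, adjusted p = 0.0232). All 5 genes of the villus base list were lower in CCK+, with Il18 at -1.80, Nlrp6 at -0.85, Ccl25 at -0.89 and Reg3b at -1.43, as were 6 of 7 enterocyte markers, and 1 of 6 genes of the villus tip was lower (Klf4, -0.39). The enterocyte markers summed to 95029 to 240687 normalized counts in CCK+ and 239447 to 356019 in CCK-. Of 6 stem and cycling crypt markers 4 were higher and 0 lower in CCK+, with sums of 1324 to 3568 in CCK+ and 733 to 2213 in CCK-. The part of enterocyte or crypt cell content in the class II difference was not tested. After refeeding, in CCK+ cells, Ctsl was higher (0.93, adjusted p = 0.0224), Ifngr2 lower (-0.82, 0.0191) and the class I chaperone Pdia3 higher (1.03, 0.00529), and in CCK- cells none of these 3 lists held a called gene. In CCK- libraries Ctsl nonetheless held 236 to 354 fasted and 423 to 525 refed, and Ifngr2 1934 to 2505 and 1376 to 1426. For the difference in refeeding between the sorts, none of these lists held a called gene.

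The 4 genes H2-Aa, H2-Ab1, H2-Eb1 and Cd74 were averaged on the log2 scale and compared with the 13025 genes of mean normalized count 10 or more, the 7 class II genes being ranked apart. Over the 12 libraries the most alike were Vmn2r69 (Pearson r 0.859), Gm13199, Dock5, Proz, Olfr1250, Ugt2b38, Plek2, Oxct1, Per3 and Gpr160 (0.798). Over the 6 CCK- libraries they were Prdm16 (0.991), Fam118a, Ltbp2, Slfn3, Pfkl, Tenm4, Vmn1r76, Hepacam2, Zfp607a and Spink10 (0.949). None of the 10 is shared by the lists. H2-DMb1 had an r of 0.813 over the 12 and 0.992 over the 6 libraries, H2-DMa 0.652 and 0.860, and Ciita 0.616 and 0.832. Among leukocyte genes Ptprc had -0.429 and -0.418, Itgax 0.043 and 0.883, and Csf1r 0.467 and 0.878. Itgax and Csf1r, markers of dendritic cells and macrophages, were named after their values were seen. No r is given here for the other markers of these cell types. Itgax held 87.9 in the CCK- library of mouse F and 0 to 5.45 in the other CCK- libraries, so its r there rests mainly on that library. The part of these markers in the class II values was not tested. These values are descriptions over few libraries that share mice.

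In the droplet library, class II RNA was concentrated in cells of enterocyte type and in part of the cells with no rule of their own. The 9451 cells with more than 1000 genes and under 10% mitochondrial UMIs (unique molecular identifiers, the count of captured RNA molecules) were grouped by UMIs per 10000, the first rule met deciding. This gave 1246 cells with Cck at 500 or more, 2492 with Tph1 at 10 or more, 3975 with Zg16 at 500 or more, 603 with Fabp1, Rbp2, Mttp, Alpi and Reg1 together at 100 or more (the enterocyte group), and 1135 others. Cck marks CCK cells, Tph1 the serotonin-producing enterochromaffin cells and Zg16 goblet cells. Median UMIs per cell were 6296, 3226, 6824, 8739 and 10256 in that order, and 986 cells met more than 1 rule. There is 1 library, so no test is given, and intervals (95%, exact) cover counting error only. Free RNA was measured in barcodes of 1 to 100 UMIs.

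Cd74 stood at 4.05 UMIs per 10000 (3.87 to 4.22) in the enterocyte group and 2.68 (2.60 to 2.77) in the remaining cells. In the Cck, Tph1 and Zg16 groups it stood at 0.548, 0.347 and 0.284, all below the 0.941 (0.812 to 1.09) of free RNA. The share of free RNA in a cell was not estimated, so Cd74 RNA of these cells and background cannot be told apart here. H2-Aa was at 0.491 in the enterocyte group, 0.288 in the rest and 0.0354 to 0.0534 in the other 3 groups, with free RNA at 0.0946. The values for H2-Eb1 were 0.580, 0.418 and 0.0353 to 0.0777 (free RNA 0.184), for H2-DMa 0.341, 0.222 and 0.0212 to 0.0474 (0.0747), and for H2-DMb1 0.256, 0.129 and 0.0323 to 0.0544 (0.0648). For these 5 genes the enterocyte group was highest, the rest second, and the hormone and goblet groups lay at or below free RNA. Among those 3 low groups, the Poisson intervals of H2-DMa overlapped for each pair except Cck and Zg16. Ciita was at the limit of detection, with 1, 0, 4, 5 and 7 UMIs in the Cck, Tph1, Zg16, enterocyte and remaining cells; 0 UMIs in the Tph1 group, with 3 counts as the limit, allow up to 0.00313 per 10000.

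**Figure D3:**
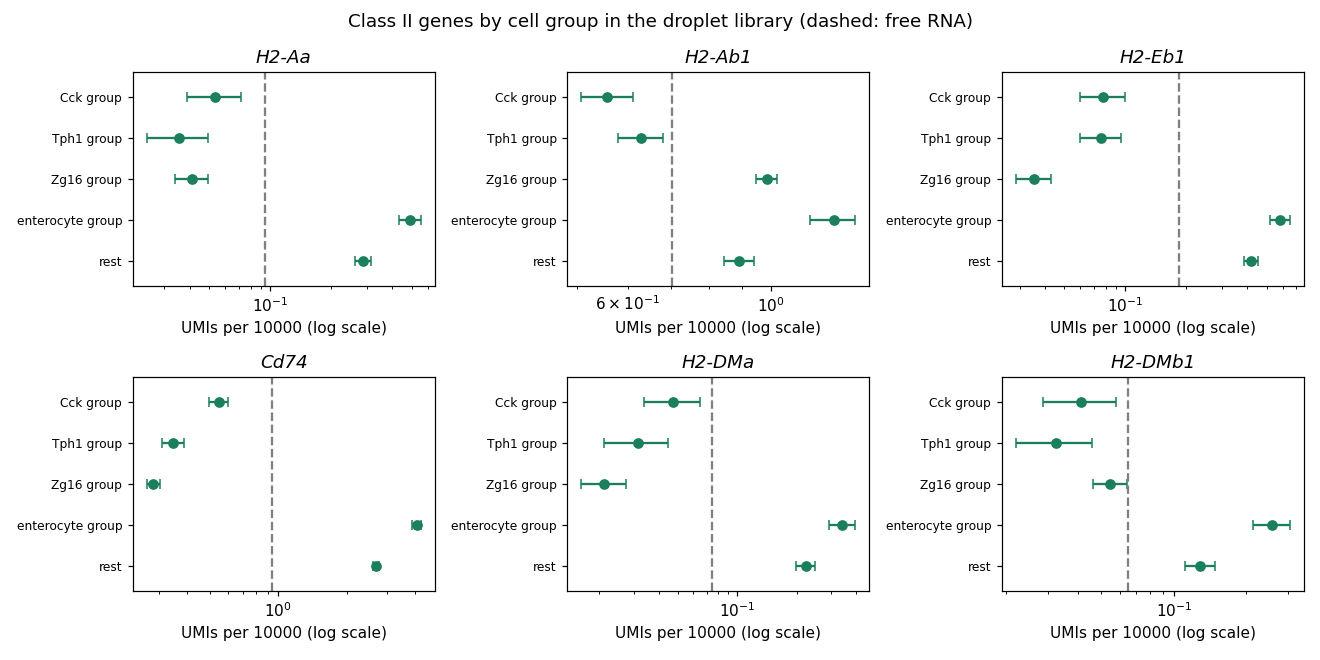
UMIs per 10000 (log axis) of each class II gene except Ciita in the 5 cell groups of the droplet library, with exact 95% Poisson intervals and the level of free RNA beside them. Cd74 is at 4.05 in the enterocyte group and below the free RNA level of 0.941 in the Cck, Tph1 and Zg16 groups, while H2-Ab1 spans only 0.558 to 1.25.

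Against the Zg16 group, Cd74 was 14.3-fold higher in the enterocyte group (13.1 to 15.5), H2-Eb1 16.4-fold, H2-DMa 16.1-fold, H2-Aa 12-fold and H2-DMb1 4.71-fold (3.71 to 5.98). That made 5 of the 6 genes with at least 50 UMIs at least 2-fold higher, where 34.5% of 9964 genes were, and H2-Ab1 was the exception at 1.27-fold (1.16 to 1.38). Against the Cck group Cd74 was 7.38-fold and H2-Ab1 2.24-fold higher, and against the Tph1 group they were 11.7-fold and 1.99-fold higher, where both groups lie below free RNA for these genes. No count is given for these groups, in which H2-Aa, H2-DMa and H2-DMb1 have under 50 UMIs each. For the rest against the Zg16 group 5 of 6 were at least 2-fold higher (background 35.8%), with Cd74 at 9.46-fold and H2-Ab1 at 0.904-fold. After thinning each cell to 2000 UMIs, a Cd74 UMI was found in 29.4% of the enterocyte group (25.7 to 33.2) and 25.5% of the rest, and in 7.22%, 4.19% and 4.15% of the Cck, Tph1 and Zg16 groups. Unthinned, the Cd74 shares were 47.9%, 51.0%, 16.5%, 7.14% and 11.7%. Thinning left out 58 cells, all of the Tph1 group.

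For the cell types that carry class II by profession, the enterocyte group held 2 UMIs of 10 B cell markers (1 of the genes), 2 of 9 dendritic cell markers and 22 of 10 monocyte and macrophage markers, against 2085 of Cd74. Cd79a and Flt3 had 0 UMIs there and Itgax 1. Epcam, an epithelial surface gene, was found in 603 of 603 of these cells. Pan-leukocyte markers had 1014 UMIs, of which 950 lay in 139 cells with tuft cell markers (Dclk1, Trpm5, Pou2f3, Avil and Il17rb at 10 or more UMIs per 10000 together), a cell type that itself carries Ptprc. Without the cells that held any pan-leukocyte UMI, 433 enterocyte group cells remained, and Cd74 stood at 4.67 there and 0.261 in the Zg16 group. Of the 170 cells so removed from the enterocyte group 135 had tuft markers. In the remaining 1135 cells B cell markers were higher, at 0.0362 UMIs per 10000 against 0.00388 in the enterocyte group. Pan-leukocyte markers stood at 0.560 there, against 1.97 in the enterocyte group and 0.144 in that group without its tuft marker cells. The remaining cells held 54 B cell, 18 dendritic cell and 5938 T and intraepithelial lymphocyte UMIs, counts that come from more cells than the 603 of the enterocyte group. The part of leukocyte RNA in the class II values of either group was not tested.

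The enterocyte group and the rest were then divided by markers, with levels chosen after the data were seen. Tuft marker cells of the enterocyte group held little class II RNA, with Cd74 at 0.326 per 10000 (0.207 to 0.489), below free RNA, and the 464 others held 4.64 (4.44 to 4.84). Against the Zg16 group 5 of 6 genes were at least 2-fold higher in these 464 cells (background 30.8%). The 33 tuft marker cells among the rest had Cd74 at 3.06 (2.35 to 3.92), with 62 of their UMIs of H2-Aa, H2-Ab1, H2-Eb1 and Cd74 in 1 cell. Among the rest, 251 cells with cycling markers stood at 5.17 (4.94 to 5.40), and 40 cells with stem markers at 11.6 (10.6 to 12.7), the highest level of any set compared. The cuts were 2 UMIs per 10000 of Mki67, Top2a and Ccnb1 together (cycling) and 2 of Lgr5, Olfm4 and Ascl2 together (stem). Sets were filled in the order tuft, hormone, Paneth, cycling and stem. The stem set is thus the 40 cells left of 98 at or over the stem cut, and 11.6 does not cover the others. In the stem marker cells 1 cell held 128 of the 801 UMIs of H2-Aa, H2-Ab1, H2-Eb1 and Cd74, 17.5% of the cells held a pan-leukocyte UMI, and dendritic cell markers had 4 UMIs, all in 1 cell; their part was not tested. H2-Aa was at 1.71, H2-Ab1 at 3.30 and H2-Eb1 at 2.15 in the stem marker cells, against 0.602, 1.57 and 0.866 in the cycling cells and 0.560, 1.38 and 0.659 in the enterocyte group without tuft markers. Cells with Gip, Ghrl or Sst (275) had Cd74 at 1.38, of which a few cells gave most, since 10% of them held 80.3% of the UMIs of the same 4 genes, and 254 Paneth marker cells had 0.591. The 282 cells with none of these markers stood at 3.17 and also held T lymphocyte markers at 14.6 per 10000. Of the 1135 cells, 70 lay within 1.5-fold of the stem level and 92 of the cycling level, so those sets depend on where the line is drawn. The cycling cells and the enterocyte group without tuft markers differed by 0.744- to 1.31-fold over the 6 genes, with 0 of 6 at 2-fold in either direction, where 29.4% of genes were 2-fold higher and 12.5% lower.

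**Figure D4:**
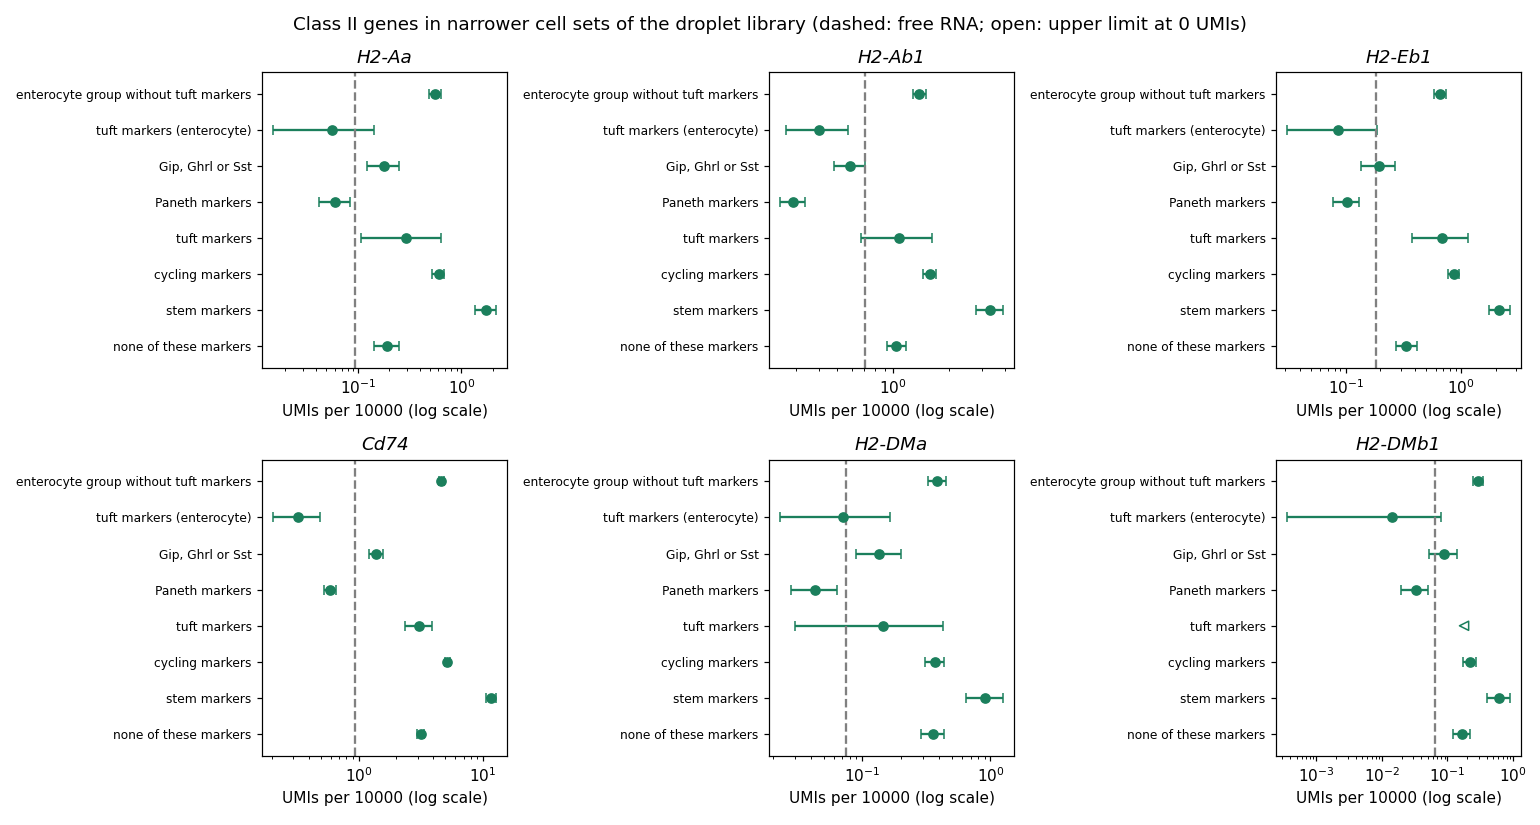
UMIs per 10000 (log axis) of each class II gene except Ciita in narrower sets of the enterocyte group and of the remaining cells, with exact 95% Poisson intervals. Stem marker cells (the 40 that fell in no earlier set) are highest for Cd74 at 11.6, and tuft marker cells of the enterocyte group are lowest at 0.326.

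H2-Ab1 stood apart from its partner genes in the goblet cells. It was at 1.25 UMIs per 10000 (1.15 to 1.35) in the enterocyte group, 0.986 (0.949 to 1.02) in the Zg16 group and 0.891 (0.844 to 0.940) in the rest, all above the 0.702 (0.591 to 0.828) of free RNA, while the Cck group at 0.558 and the Tph1 group at 0.628 lay below it. Thinned to 2000 UMIs, 17.9% of Zg16 group cells (16.8 to 19.2) and 17.4% of enterocyte group cells (14.5 to 20.7) held an H2-Ab1 UMI. For each UMI of H2-Aa, its partner chain, there were 24.1 of H2-Ab1 in the Zg16 group, 17.7 in the Tph1 group and 10.4 in the Cck group, but 2.55 in the enterocyte group and 3.10 in the rest. Free RNA gave 7.42, from 19 UMIs of H2-Aa, and the Zg16, Tph1 and Cck ratios lie above it while their H2-Aa levels lie below free RNA. In the bulk libraries the ratio of normalized counts ran from 1.44 to 1.92 in CCK+ and from 1.38 to 2.81 in CCK- cells, on a scale that is not the same as that of UMIs.

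**Figure D5:**
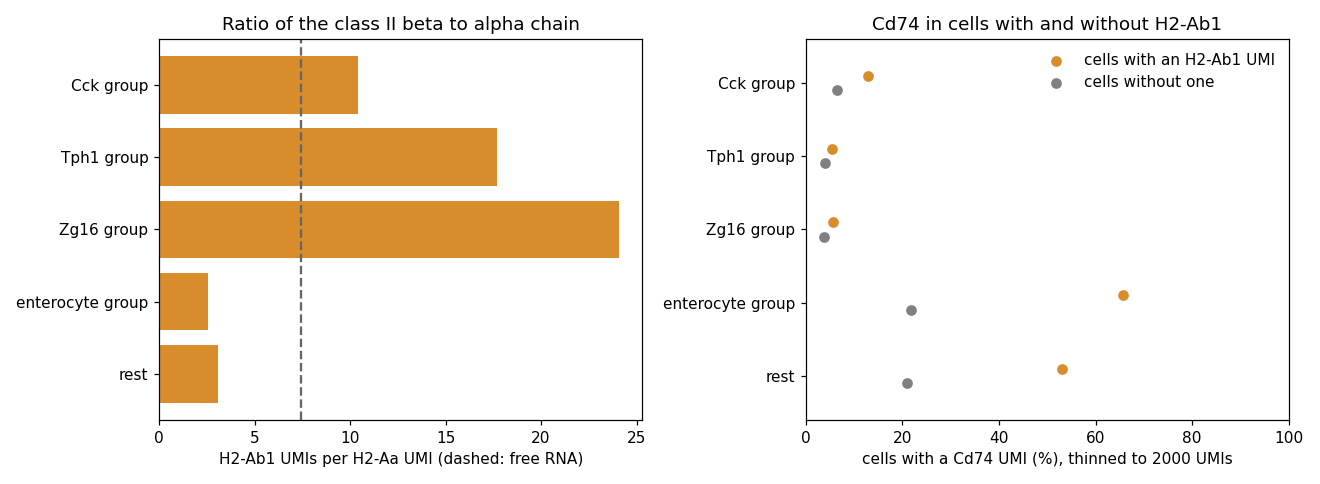
Left, UMIs of H2-Ab1 for each UMI of H2-Aa in the 5 cell groups, as bars from 0, with the value of free RNA (7.42) as a dashed line. Right, share of cells (%, thinned to 2000 UMIs) with a Cd74 UMI among cells with and without an H2-Ab1 UMI; the shares are 65.7% and 21.7% in the enterocyte group and 5.75% and 3.80% in the Zg16 group.

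The class II genes were found together in the same cells of the enterocyte group and much less so in goblet cells. Of thinned enterocyte group cells with an H2-Ab1 UMI, 65.7% also held Cd74, and of those without 21.7%. The corresponding shares were 53.1% and 20.9% in the rest, 12.9% and 6.55% in the Cck group, 5.36% and 4.05% in the Tph1 group and 5.75% and 3.80% in the Zg16 group. H2-Aa, H2-Ab1, H2-Eb1 and Cd74 were all detected in 10.8% of enterocyte group cells, 10.7% of the rest and 0.161% to 0.401% of the other groups, unthinned. These shares depend on depth, and after thinning they were 1.33%, 0.969% and 0% to 0.0503%. Class II was uneven within the enterocyte group: 38.6% of its cells had no UMI of these 4 genes, and 10% of the cells held 56.1% of the UMIs. The 25 cells with the highest share of class II UMIs included 11 of the enterocyte group, 0 of them with a pan-leukocyte UMI, 11 of the rest, 5 with one, and 3 of the Zg16 group, 2 with one.

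Within the 464 enterocyte group cells without tuft markers, 182 held a UMI of H2-Aa or H2-Eb1 and 282 did not. Since this division uses the class II genes themselves, it is given as a description. The former had Cd74 at 9.28 and the latter at 1.43 UMIs per 10000, H2-DMa at 0.628 and 0.217, and H2-DMb1 at 0.617 and 0.0722. Depth was alike, with medians of 9529 and 9323 UMIs. The 5 villus base genes summed to 706 and 581, and the 6 villus tip genes to 113 and 78.5, both higher in the cells with class II. Reg3b (488 and 399) and Reg3g (204 and 167) gave most of the base sum. Apoa1 (82.3 and 54.8) and Apoa4 (28.7 and 21.8) gave most of the tip sum. The sums thus describe mainly these genes. Of the lower tip genes, Ada was at 0.303 and 0.198, while Nt5e lay the other way at 0.0385 and 0.0494. B2m was at 18.1 (17.5 to 18.7) and 15.1 (14.7 to 15.6).

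The 7 genes of interferon-gamma receptor and signalling summed to 5.34 UMIs per 10000 in the enterocyte group (5.14 to 5.54), 4.28 in the Zg16 group, 3.66 in the Tph1 group, 2.77 in the Cck group and 2.43 in the rest. The enterocyte group was thus highest, as for Cd74, and the rest lowest, where for Cd74 it was second. Ifngr1 was at 1.05 UMIs per 10000 in the Zg16 group, above free RNA (0.847), while the enterocyte group at 0.850 and the other 3 at 0.437 to 0.546 were at or below it. Irf1 ran from 0.364 to 0.761 over the 5 groups, all below free RNA (0.976), so Irf1 RNA of the cells and background cannot be told apart here. Rfx5, a subunit of the factor at the X box, was at 0.0741 in the Cck group and 0.0369 in the enterocyte group (0.0222 to 0.0576), and 0.0173 in the Zg16 group, with free RNA at 0.0448. The 13 interferon-gamma responsive genes summed to 12.9 in the Zg16 group and 1.98 in the enterocyte group. Ctss, which trims the invariant chain, was at 0.735 in the enterocyte group and 0.0547 to 0.244 in the others, the same order as Cd74 for the highest and the second group. B2m was at 16.9 in the enterocyte group, 12.9 in the Zg16 group and 4.47 to 5.49 in the other 3, which lay below free RNA (7.28).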

How the data were processed

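For the bulk table, normalized counts (a signal, not raw counts) were deposited: the authors trimmed reads with Trim Galore 0.6.7, quantified them with Salmon 1.6.0 against GRCm39 transcripts and normalized with DESeq2, after amplification with Ovation RNA-Seq V2. Low values lay within 0.01 of a whole number of reads in only 40.5% to 55.2% of cases a library, so reads were not recovered and no count model was used. Differences were tested with limma 3.58.1 (R 4.3.3) on log2(normalized count + 1), 4 group means, 12 libraries, 8 residual degrees of freedom, with a mean-variance trend and Benjamini-Hochberg adjustment over 22042 genes. The mouse was added as a block as an alternative. Deviations from group means correlated at 0.0463 to 0.0650 for 6 same-letter pairs and at -0.0455 to -0.00973 for 12 others; the letter was taken as the mouse because each library comes from 1 mouse and letters are shared between sorts. The fit without the block was tried on simulated data that held no mouse effect, and the fit with the block was not.

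For the droplet matrix, UMI counts per gene and barcode were deposited by the authors from Cell Ranger 2.0.1 on mm10, unfiltered. Python 3.11.15 with SciPy 1.17.1 was used. Levels are UMIs per 10000 over all cells of a group. No doublet caller was run. Fixed numbers were a pseudocount of 1, a 2-fold level, at least 50 UMIs for folds, and 3 counts as the floor. Intervals (Poisson, Clopper-Pearson) cover counting error only.

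The members and gene lists were chosen with earlier results of these data known. All 7 genes are named with every library's value. Of the pathway and villus lists, up to 4 called genes with the lowest adjusted p are named, and H2-DMb2, H2-Ea, Ifngr1, Rfx5, Irf1, B2m, Nlrc5 and Ptprc whatever they show; Gbp6, Itgax, Csf1r and others outside this rule were named after their values were seen. A gene of this rule is not reported here. Promoters and positions are from RefSeq (GRCm38.p6), overlaps and shared words from GENCODE.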

Additional observations from a re-analysis of the deposited data

Results flagged for a closer look

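Rfx5, a subunit of the factor that binds the X box, differed between sorts in opposite directions in the fasted and the refed mice. CCK+ minus CCK- was -0.19, -0.41 and -0.37 on the log2 scale in the fasted mice A, B and F, and 0.55, 0.93 and 1.08 in the refed mice C, D and E. Its CCK- level was 140, 133 and 98.8 normalized counts fasted and 62.2, 45.0 and 60.6 refed, with no overlap, and its CCK+ level 75.9 to 123 and 86.8 to 129. The difference between the states was 1.18 (SE 0.38, unadjusted p = 0.00721), which did not pass adjustment over all genes with limma (adjusted p = 0.677; 0.564 with the mouse as a block). Rfx5 came to notice among the named genes after its values were seen.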

How the results depend on the processing

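With a mean normalized count of at least 10 required, 1 class II gene was called between CCK+ and CCK- in place of 0, H2-Ab1 (adjusted p = 0.0493). With the replicate block (mouse) 4 were called, with the block and equal library sums 2, and with the block and each mouse left out 1, 3, 4, 1, 2 and 1 (A to F). Leaving out each library gave 0 to 1. Over its 30 alternatives the adjusted p of H2-Ab1 ran from 0.000547 to 0.360 and passed in 11. The block changed no call for the refeeding difference. With equal sums the signs of H2-Eb1 (0.08), H2-DMb2 (0.19), Irf1 (0.14) and Klf4 (0.00) turned in the sort comparison, with and without the block, as did H2-DMa after refeeding in CCK+ (0.18). In the fasted libraries alone H2-DMa (-0.03), Nlrc5 (-0.01) and Rfx5 (-0.32) turned, and in the refed alone H2-DMb1 (-0.17). With the block, H2-DMb1 turned without mouse B (-0.13), H2-DMb2 without C (0.06) and Nlrc5 without E (-0.09) or F (-0.08), the last also without the block. After refeeding, leaving out both libraries of mouse F turned H2-Ab1 (0.00) and H2-DMa (0.24) in CCK+ and H2-Aa (0.10), H2-Ab1 (0.18), Cd74 (0.22) and H2-DMb1 (0.08) in CCK-, and leaving out mouse E turned H2-DMa (0.21) in CCK+ and H2-Aa (0.09), H2-Ab1 (0.11) and Cd74 (0.05) in CCK-. In the refeeding difference between sorts, H2-Aa turned with the block without B (0.08) or D (0.05), and Ciita, at -0.01, with a pseudocount of 0.5 (0.00), equal sums (0.14, also with the block), without F (0.16, also with the block) and with the block without A or C (0.29). Over single libraries left out, values ran from -0.08 to 0.38 for H2-DMb1 and -0.10 to 0.40 for Nlrc5 between sorts; from -0.72 to 0.00 for H2-Ab1, -0.27 to 0.24 for H2-DMa and -0.42 to 1.16 for Ciita after refeeding in CCK+; from -0.83 to 0.10 for H2-Aa, -0.46 to 0.18 for H2-Ab1, -0.53 to 0.22 for Cd74 and -0.77 to 0.08 for H2-DMb1 in CCK-; and from -0.69 to 0.25 for H2-Aa, -0.58 to 0.19 for H2-Ab1, -0.72 to 0.00 for H2-Eb1 and -0.85 to 0.72 for Ciita in the difference. None of these turned values was called, and the cause was not tested. In the droplet library 5 genes were at least 2-fold higher in the enterocyte than in the Zg16 group under all 6 alternatives. Fits with 1 library left out of a group assume that the group varies like the others. Counts of 1 to 7 UMIs limit Ciita, and 1 pooled droplet library allows no test between groups.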
